A study of Mus musculus with 12 samples.

Results

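The shortest intergenic long noncoding RNAs (lncRNAs) of mouse liver are described here: 1711 entries of a table of 15558 lncRNAs, of which 13343 were intergenic. An entry was taken if it lay on an autosome, was named as intergenic, had a given strand and spanned under 500 bases from start to end on mouse genome build mm9, and 4 entries were left out by name. Such entries on X or Y (53) and autosomal ones without a given strand (19) were not members. The shortest span was 201 bases and the median 375. Apart from those 4, the rule used class, chromosome, strand and span and no measured value. It was chosen with earlier results of these data known. Just inside the limit, ncRNA_inter_chr12_10845, ncRNA_inter_chr3_2150 and ncRNA_inter_chr9_8377 fell 1 base short of it, and just outside it ncRNA_inter_chr10_8779, ncRNA_inter_chr5_4447 and ncRNA_inter_chr6_5173 spanned 500. The first had 0.0780, 0.401 and 0.188 RPKM (reads per kilobase and per 1e+06 reads) in 3 libraries, the fourth 0.0875 in 1, and the other 4 were at 0 in all.

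lncRNAs are transcripts with no long reading frame, and in liver many of them are kept in the nucleus, differ between the sexes or respond to drugs. TCPOBOP activates the mouse nuclear receptor CAR and PCN activates the related receptor PXR, and both receptors bind enhancers and switch on genes of drug metabolism. A short intergenic entry can be a transcript of its own, or a fragment of a longer one that an assembly left in pieces, and a list of spans does not tell which.

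The mice were CD-1, an outbred stock, aged 8 weeks, and each library pooled RNA that had been enriched for poly-A tails. From whole liver of males, 4 libraries of 6 livers each kept the strand of the RNA, one for each agonist at 3 h (11 AM) and 6 h (2 PM). Another male whole-liver library (TCPOBOP, 3 h, 6 livers) and all nuclear libraries did not keep it. Nuclei came from males given PCN for 3 h (1 library, 2 livers), from females given TCPOBOP for 3 h (3 pools of 3, 4 and 4 livers) and from males given TCPOBOP for 3 h (3 pools of 4 livers). Experiment codes split them further, since the female pools were coded G86, the male TCPOBOP nuclear pools G95 and the other 6 libraries G81. Every animal had received an agonist, and libraries from vehicle-treated mice were not analysed here. The table names no gene, so the tissue could not be checked against liver markers. In bulk RNA, fewer cells of a type and less RNA per cell cannot be told apart.

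The libraries differed in depth. The stranded libraries held 25.2 to 27.8 M reads (M, 1e+06), the unstranded whole-liver library 40.3 M, the nuclear PCN library 21.9 M, the female pools 22.9 to 32.0 M and the male pools 7.31 to 11.9 M. On a member of 400 bases, 1 read was worth 0.0620 RPKM in the deepest library and 0.342 RPKM in the shallowest.

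Most members were silent or close to it. Of the 1711, 1007 were above 0 in at least 1 library and 704 in none, and 39 were above 0 in all 12. Among those seen, the mean level over 12 libraries had a median of 0.0547 RPKM, and the median member gathered 5 reads in all. Between 1 and 9 reads were found on 678 members, 10 to 99 on 284 and 100 or more on 45. The 10 most abundant members took 31.2% of the 24481 reads on all of them. Intergenic autosomal lncRNAs with a longer span were found more often: 70.4% of 3425 spanning from 500 bases to under 1 kb were above 0 somewhere, 85.6% of 6814 spanning from 1 kb to under 10 kb and 91.1% of 901 spanning 10 kb or more, against 58.9% of the members. Since a longer entry has more bases for reads to fall on, these shares do not compare levels. On the RPKM scale, which divides by length, the median mean level of the entries above 0 was 0.0547 for members and 0.0454, 0.0700 and 0.115 for the longer classes in turn.

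In a stranded library 231 to 249 members were above 0, which is 13.5% to 14.6% of them. In the unstranded whole-liver library 493 were (28.8%), in the nuclear PCN library 427 (25%), in the female pools 470 to 529 and in the male pools 243 to 357. The male pools had under 12 M reads each, and their range of members overlapped that of stranded libraries with more than 25 M. With at least 3 reads asked for, 4.97% to 5.44% of members remained in a stranded library, 14.8% in the unstranded whole-liver library and 3.57% to 5.67% in a male pool. Members with 1 read numbered 136 to 203 in a male pool. They were common elsewhere too, with 221 to 229 in a female pool and 108 to 120 in a stranded library.

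**Figure D1:**
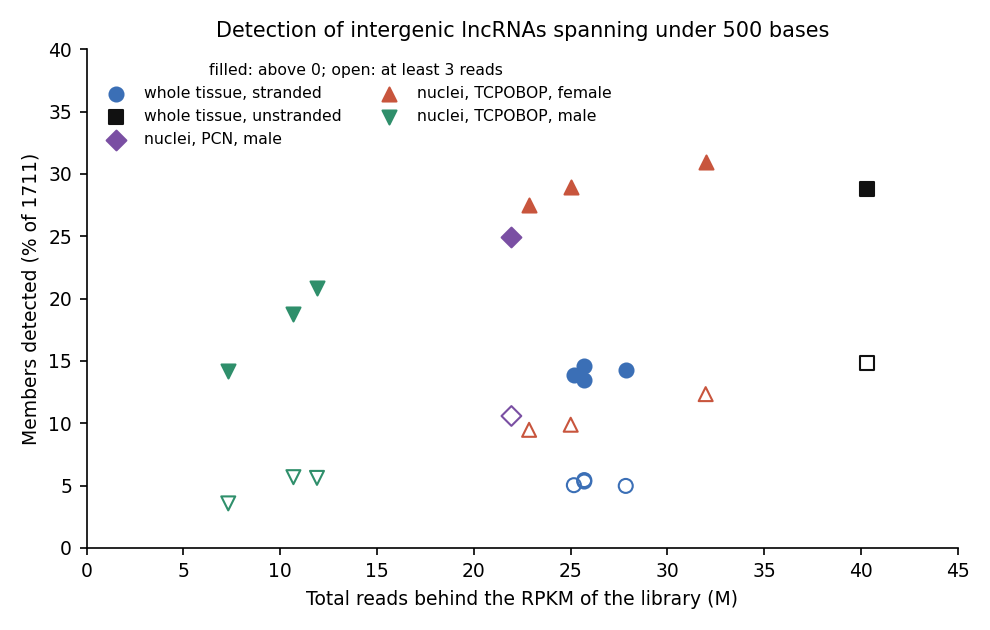
Share of the members that were detected (vertical axis, percent) against the total reads of each of the 12 libraries (horizontal axis, M reads), with filled symbols for members above 0 and open symbols for members with at least 3 reads. The 4 stranded whole-liver libraries lie at 13.5% to 14.6% although they are deeper than the 3 male nuclear pools, which lie at 14.2% to 20.9%.

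By position, the median distance to the nearest other entry was 1745 bases for members and 1733, 1416 and 1697 bases for the longer classes. Another entry lay within 10 kb of 1182 members without overlap, and 481 members lay farther than 10 kb from any. The remaining 48 overlapped another entry, in every case one on the opposite strand. The minus strand held 931 members and the plus strand 780. Being near another member was common too, since 565 members had one within 10 kb. Those 565 were above 0 somewhere in 45.3% of cases, and the 481 isolated ones in 67.4%. Of the 1007 members above 0, all but 8 had an RPKM length equal to the full span. A genome of build mm9 was not used here, so no sequence is shown, and whether members hold repeats or have near-identical copies was not tested.

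The most abundant member was ncRNA_inter_chr17_13739 (chromosome 17, 24665196-24665689, plus strand), one of the 8 whose length was shorter than the span, 295 of 494 bases. It had 1.58 and 2.43 RPKM after TCPOBOP at 3 h and 6 h and 1.85 and 3.10 after PCN in stranded whole liver, and 28.9 in the unstranded whole-liver library. In nuclei it had 35.2 RPKM after PCN, 18.6, 26.6 and 22.8 in the female pools and 14, 16.2 and 18.5 in the male pools. All 8 unstranded libraries were thus above all 4 stranded ones, whether from whole tissue or from nuclei.

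ncRNA_inter_chr14_12029 (chromosome 14, 52383162-52383562, plus strand) had no read in any stranded library. It had 3.16 RPKM in the unstranded whole-liver library and 7.27 in PCN nuclei, while the female pools had 29.2, 33.7 and 23.5 and the male pools 27.8, 14.7 and 28.1. The 6 TCPOBOP nuclear pools were all above both other unstranded libraries, and the sexes overlapped. Its nearest other entry was 177163 bases away.

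ncRNA_inter_chr3_2169 (chromosome 3, 14862872-14863233, plus strand) was the highest member of stranded whole liver at 3 h with either agonist, while ncRNA_inter_chr7_6566 was the highest at 6 h. It had 15.2 RPKM at 3 h and 6.15 at 6 h after TCPOBOP, and 11.3 at 3 h and 2.74 at 6 h after PCN. The female pools had 1.88, 2.94 and 12.8 RPKM and the male pools 5.43, 13.6 and 18.3. Pools of 1 sex differed more than 3-fold, and the sexes overlapped.

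The other 7 of the 10 highest members fell into kinds by library. ncRNA_inter_chr7_6566 had 7.5 to 13.6 RPKM in stranded whole liver, 26.2 in unstranded whole liver and 11.9 in PCN nuclei, but 1.65 ± 0.227 in the female and 2.58 ± 0.659 in the male pools (SD, n = 3 each). ncRNA_inter_chr15_12777 went the other way, with 1.39 to 3.44 RPKM in stranded whole liver, 3.41 and 3.92 in the remaining G81 libraries and 8.37 to 13.3 in the 6 pools. ncRNA_inter_chr12_10988 had no read in a stranded library and 1.89 to 21.4 RPKM in the unstranded ones. ncRNA_inter_chr2_2124 had 0.335 to 0.966 RPKM stranded and 17.3 and 25.3 in the unstranded whole-liver and PCN nuclear libraries. For ncRNA_inter_chr5_4773, ncRNA_inter_chr17_13889 and ncRNA_inter_chr5_4509 too, every stranded value was below every value from the unstranded G81 libraries.

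**Figure D2:**
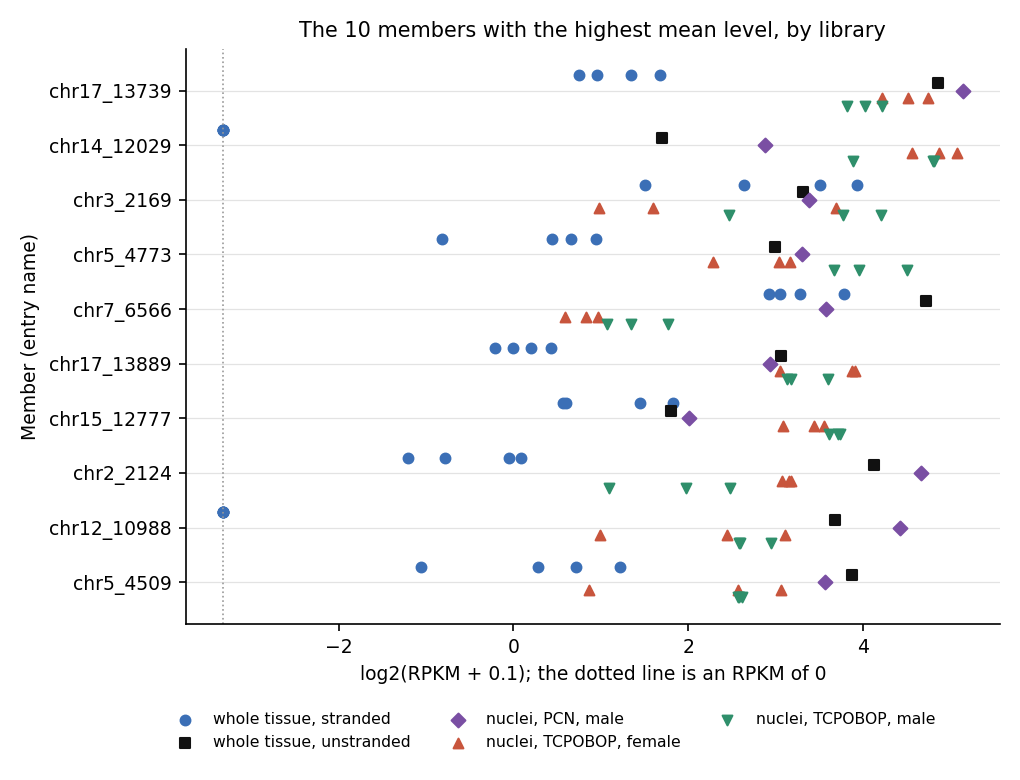
Level of the 10 members with the highest mean (rows) in each of the 12 libraries (points), on a log2(RPKM + 0.1) scale, with symbols for the kind of library. The stranded libraries of ncRNA_inter_chr14_12029 and ncRNA_inter_chr12_10988 lie on the dotted line of 0 RPKM, and ncRNA_inter_chr7_6566 is lower in all 6 TCPOBOP nuclear pools than in any other library.

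When the sexes were compared in liver nuclei, 3 h after TCPOBOP, some members had reads in 1 sex alone or nearly so. ncRNA_inter_chr4_3178 was the highest of the named members above in females, and ncRNA_inter_chr2_1234 and ncRNA_inter_chr3_2639 were among those above in males. Of 871 members above 0 in a pool, 344 reached 0.1 RPKM in 3 pools and were tested with limma. An adjusted p under 0.05 was reached by 36 (10.5%) where 8.79% of all 5951 lncRNAs tested did. Of these, 21 were higher in females (6.10%, against 3.92% of all tested) and 15 were higher in males (4.36%, against 4.87%). The median log2 difference, female minus male, was 0.12 over the members and -0.09 over all tested. The female and male pools did not overlap for 70 members (20.3%), below the 31.3% of all tested.

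The female side is thin. Of its 21 members, 17 had no read in any male pool, so that they passed the filter through the female pools alone, and 11 had fewer than 10 reads in the female pools together. On the male side 2 of 15 had no read in any female pool, and 7 had fewer than 10 reads in the male pools. The female pools held 79.8 M reads in all and the male pools 29.9 M, and sex was one with the experiment (G86 and G95), so sex, experiment and depth cannot be told apart. Equal medians in all libraries gave 31 members higher and 7 lower in females, and limma-voom on whole reads gave 2 and 13, in place of 21 and 15. Of these calls 28 and 12 were among the 36. Leaving out female replicate 1, 2 or 3 gave 6, 10 and 8 calls, of which 6, 7 and 7 were among the 36. Leaving out male replicate 1, 2 or 3 gave 16, 21 and 25, of which 10, 15 and 11 were among the 36.

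ncRNA_inter_chr4_3178 (chromosome 4, 43505657-43505931, minus strand) had 17.9, 7.51 and 6.20 RPKM in female pools and 1.70, 1.49 and 0.306 in male pools, from 123, 66 and 39 reads against 5, 3 and 1. All female pools were above all male pools. The log2 difference was 3.18 (SE 0.61, limma adjusted p = 0.0199), and the ratio of read rates was 9.49, with an exact 95% interval of counting error from 4.91 to 21.0. The unstranded male G81 libraries had 3.70 RPKM in whole liver and 5.30 in PCN nuclei, between the pools of the sexes, and the 4 stranded ones had 0.141, 0, 0.283 and 0.433, below all female pools. Without female replicate 1 or 2 the adjusted p was 0.0776 and 0.0552.

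ncRNA_inter_chr2_2124 (chromosome 2, 181652317-181652638, plus strand) had 8.82, 8.35 and 8.97 RPKM in female pools and 2.04, 3.82 and 5.48 in male pools, again without overlap. The log2 difference was 1.29 (SE 0.32, limma adjusted p = 0.0474), and leaving out female replicate 1, 2 or 3, or male replicate 1 or 2, gave an adjusted p of 0.149, 0.115, 0.140, 0.0596 and 0.0787. The unstranded male G81 libraries had 17.3 and 25.3 RPKM, above every female pool, and the 4 stranded ones 0.335 to 0.966, below every pool of either sex.

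The remaining 5 named members above in females were low. ncRNA_inter_chr2_1497 had 1.56 ± 0.117 RPKM in the female and 0.767 ± 0.228 in the male pools (SD, n = 3 each, limma adjusted p = 0.0485), and its call was lost whichever single pool was left out, with an adjusted p from 0.0563 to 0.162. ncRNA_inter_chr5_4553 had 0.859 ± 0.393 RPKM in female pools and 1 read in 3 male pools, a ratio of read rates of 10.9 with an exact interval from 1.80 to 443 (limma adjusted p = 0.0188). Without female replicate 1 or 3 or male replicate 1 its adjusted p was 0.0876, 0.0690 and 0.0547. No read was found in male pools of ncRNA_inter_chr3_2224, ncRNA_inter_chr18_14693 and ncRNA_inter_chr4_3463, against 14, 13 and 20 reads in female pools. Set against 3 reads over the male pools, the most that a count of 0 allows, their female means were 1.77-fold, 1.65-fold and 2.62-fold higher. The counting error of the female means is left out of these folds. With limma-voom their adjusted p was 0.140, 0.105 and 0.0586. In the unstranded male G81 libraries, whole liver and then PCN nuclei, ncRNA_inter_chr2_1497 had 5.66 and 2.32 RPKM, above every female pool. In that order ncRNA_inter_chr5_4553 had 0.283 and 0.728, ncRNA_inter_chr3_2224 2.20 and 0.639, ncRNA_inter_chr18_14693 1.03 and 0.863 and ncRNA_inter_chr4_3463 0 and 0.0928. Those libraries also differ from the male pools in experiment and in compartment or agonist.

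ncRNA_inter_chr3_2639 (chromosome 3, 98449751-98450171, minus strand) had no read in any female pool and 0.667, 0.649 and 1.40 RPKM in male pools, from 3, 2 and 7 reads. The log2 difference was -3.25 (SE 0.34, limma adjusted p = 0.00197). As measured, the male mean was 10.1-fold higher than 3 reads over the female pools. ncRNA_inter_chr2_1234 (chromosome 2, 34924532-34924837, minus strand) had 0.523, 0.613 and 0.143 RPKM in female pools and 3.37, 2.68 and 2.47 in male pools (log2 difference -2.61, SE 0.40, limma adjusted p = 0.00789). ncRNA_inter_chr2_1234 kept its call under every alternative, each pool left out in turn included. ncRNA_inter_chr3_2639 passed the filter through the male pools alone, so it was not tested without any of them, and it kept its call in the other alternatives that tested it. It had 0.118 and 0.217 RPKM in the unstranded male G81 libraries, below every male pool, and 0.256 to 2.96 in the stranded ones. ncRNA_inter_chr2_1234 had 1.05 and 1.34 RPKM in those unstranded libraries, between the pools of the sexes, and 0.909 to 2.80 in the stranded ones.

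ncRNA_inter_chr7_5923 had no read in female pools and 17, 1 and 9 in male pools, so that 1 male pool held a single read. Its log2 difference was -4.24 (SE 0.72, limma adjusted p = 0.0124), and without female replicate 1 the adjusted p was 0.0569. ncRNA_inter_chr3_2793 had 0.217 ± 0.229 RPKM in female and 3.24 ± 1.10 in male pools (SD, n = 3 each, limma adjusted p = 0.0101), and ncRNA_inter_chr1_634 had 0.161 ± 0.145 and 1.82 ± 0.821 (SD, n = 3 each, limma adjusted p = 0.0190). Without male replicate 1 or 3 the latter had an adjusted p of 0.0596 and 0.0576. Over the 6 male G81 libraries, ncRNA_inter_chr3_2793 had 0 to 0.523 RPKM and ncRNA_inter_chr1_634 0 to 0.160, each below every male TCPOBOP pool. ncRNA_inter_chr7_5923 had 1.40 and 1.58 RPKM in the unstranded ones, within the range of its male pools, and 0 to 0.122 in the stranded ones.

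Smaller differences were seen in members with more reads. ncRNA_inter_chr5_4773 (chromosome 5, 148706820-148707159, minus strand) had 8.12, 4.78 and 8.88 RPKM in female and 15.4, 22.5 and 12.6 in male pools (log2 difference -1.21, SE 0.29, limma adjusted p = 0.0437). Its call was lost without any 1 of the 6 pools, at an adjusted p of 0.0529 to 0.104. ncRNA_inter_chr12_10881 had 1.46 ± 0.899 RPKM in female and 5.03 ± 1.67 in male pools (SD, n = 3 each, limma adjusted p = 0.0303), and ncRNA_inter_chr8_7432 had 0.866 ± 0.431 and 2.64 ± 0.623 (SD, n = 3 each, limma adjusted p = 0.0379). The former lost its call without female replicate 1 or 3 or male replicate 1 or 3 (adjusted p of 0.0708 to 0.112). The latter lost it without every pool other than female replicate 3 (adjusted p of 0.0564 to 0.0962). The unstranded male G81 libraries had 7.88 and 9.79 RPKM of ncRNA_inter_chr5_4773, below every male pool. They had 0.309 and 0.682 of ncRNA_inter_chr12_10881, below every pool of either sex, and 3.10 and 2.37 of ncRNA_inter_chr8_7432, within the range of its male pools.

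**Figure D3:**
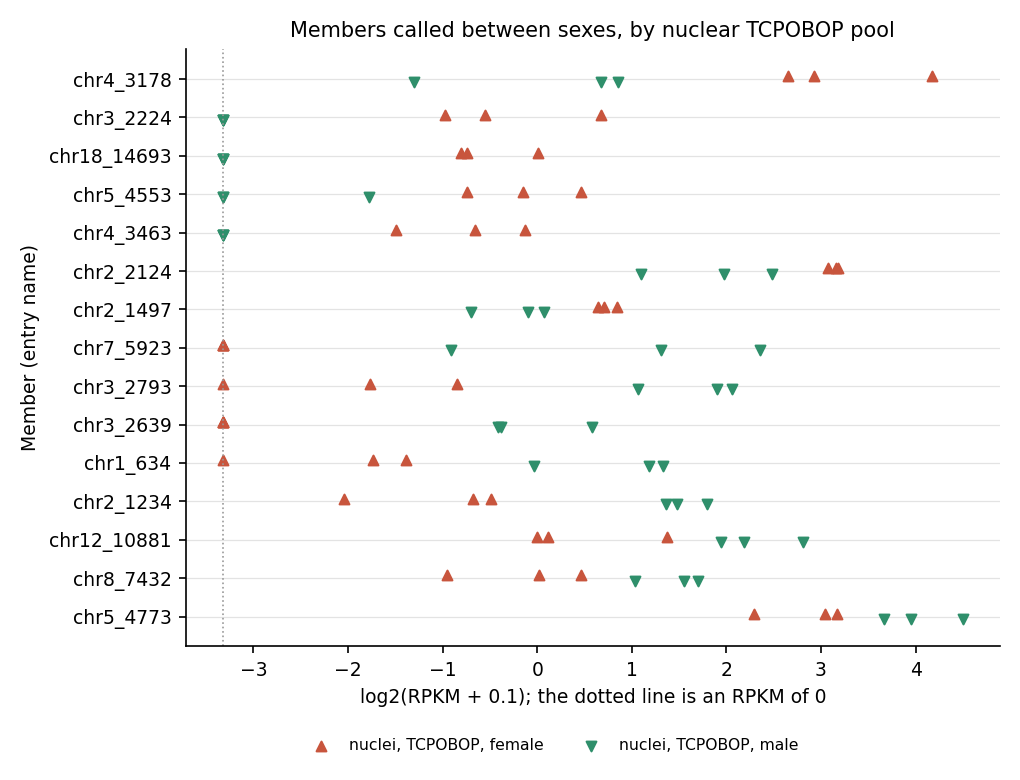
Level of the 15 named members called between the sexes (rows) in the 3 female and 3 male nuclear TCPOBOP pools (points), on a log2(RPKM + 0.1) scale. The top 7 are higher in females and the lower 8 in males, no member's sexes overlap, and points on the dotted line are pools with 0 RPKM.

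Several of these members stood beside longer entries that moved the same way. For 18 of the 36 called members the nearest entry lay within 10 kb, and 15 of those entries were tested. The sign was the same for 11, and 5 of the neighbours passed the test themselves, all with the sign of the member. The same shares among all lncRNAs tested are not given here, so nothing is drawn from these counts. Some of the nearest entries were themselves members, such as ncRNA_inter_chr13_11203 and ncRNA_inter_chr3_2509, neither of which was called. ncRNA_inter_chr8_7431, which spans 1782 bases on the opposite strand and ends 111 bases from ncRNA_inter_chr8_7432, had 13.7 ± 3.65 RPKM in female and 44.9 ± 2.92 in male pools (SD, n = 3 each, limma adjusted p = 0.00356). ncRNA_inter_chr2_1233, 127 bases from ncRNA_inter_chr2_1234, had 1.13 ± 0.178 and 2.89 ± 0.495 RPKM (SD, n = 3 each, limma adjusted p = 0.00912). ncRNA_inter_chr1_633, ncRNA_inter_chr12_10882 and ncRNA_inter_chr4_3464 were the other called neighbours, at 185, 1665 and 202 bases and on the strand of their member. Without strand in the pools, reads of entries that face each other this closely may not be told apart.

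Between TCPOBOP and PCN in stranded whole liver, 4 single libraries entered an additive fit of agonist and time with 1 residual degree of freedom. No member of 185 tested reached an adjusted p under 0.05 with limma, nor did any of the 2270 lncRNAs tested (0%). At an unadjusted p under 0.05 there were 38 members (20.5%) and 162 of all tested (7.14%), and limma-voom called 0 members. Going the same way at both times was seen for 87 of the 185, and 63 had at least 10 reads in the arm where they were higher. The median log2 difference, TCPOBOP minus PCN, was -0.04 for members and 0.04 for all tested.

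The values of the members farthest apart are given with no call. ncRNA_inter_chr15_12719 (chromosome 15, 77484528-77484967, minus strand) had 0.973 and 1.31 RPKM after TCPOBOP at 3 h and 6 h and 0.265 and 0 after PCN, from 11 and 16 reads against 3 and 0. The log2 difference was 2.68 (SE 0.71, limma adjusted p = 0.649). ncRNA_inter_chr5_4509 had 2.23 and 1.55 RPKM after TCPOBOP and 1.12 and 0.380 after PCN, and ncRNA_inter_chr10_9366 had 1.22 and 0.225 against 0.326 and 0.0831. At the other end ncRNA_inter_chr8_6870 had 0.447 and 0 RPKM after TCPOBOP and 1.01 and 0.913 after PCN (log2 difference -2.18, SE 0.73, limma adjusted p = 0.678). The 6 other members named by this rule were ncRNA_inter_chr2_1189 and ncRNA_inter_chr1_309 with log2 differences of 1.29 and 1.08, and ncRNA_inter_chr4_3397, ncRNA_inter_chr10_9102, ncRNA_inter_chr12_10881 and ncRNA_inter_chr2_2124 with differences from -1.07 to -1.01.

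For 6 h against 3 h, the same fit called no member of 185 and none of all 2270 tested (0%), with 43 members (23.2%) and 273 of all tested (12%) at an unadjusted p under 0.05, and limma-voom called 0 members. Going the same way with both agonists was seen for 94 of the 185. The hour after injection was also the hour of day, so time after injection and time of day cannot be told apart. ncRNA_inter_chr3_2169, described above, had a read rate at 6 h that was 0.343 times that at 3 h, with an exact 95% interval of counting error from 0.265 to 0.440. Its log2 difference was -1.64 (SE 0.27, limma adjusted p = 0.328), and it was lower at 6 h with both agonists. Among lncRNAs with a mean of at least 1 RPKM alone, its limma adjusted p was 1.4e-05, and over all alternatives it ran from there to 0.653.

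ncRNA_inter_chr3_2639 had 2.96 and 0.256 RPKM at 3 h and 6 h after TCPOBOP and 0.739 and 0.378 after PCN (log2 difference -1.96, SE 0.72, limma adjusted p = 0.447). Its 3 h TCPOBOP library alone held 32 of its 47 stranded reads. ncRNA_inter_chr10_9366, ncRNA_inter_chr12_10781 and ncRNA_inter_chr1_913 had log2 differences of -1.62, -1.58 and -1.57. On the side higher at 6 h, ncRNA_inter_chr2_1423 had 1.79 RPKM at 6 h and 0.121 at 3 h after TCPOBOP, and 0.743 and 0.485 after PCN. ncRNA_inter_chr5_4199 had 1.81 and 0.843 after TCPOBOP and 1.86 and 0.983 after PCN (log2 difference 0.94, SE 0.21, limma adjusted p = 0.357). ncRNA_inter_chr10_8909, ncRNA_inter_chr14_12016 and ncRNA_inter_chr19_14808 had log2 differences of 1.66, 1.22 and 1.20.

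In nuclei of males, TCPOBOP was set against PCN at 3 h, with 3 pools of experiment G95 against 1 library of experiment G81. Most calls were of members with reads in the PCN library and none in the pools. Of 605 members tested, 36 were called lower in the TCPOBOP pools with limma (5.95%, against 1.41% of all 7401 lncRNAs tested) and 7 higher (1.16%, against 2.86%), together 7.11% against 4.27%. The median log2 difference, TCPOBOP minus PCN, was 0.00 for members and 0.25 for all tested. Of the 36, 32 had no read in any male TCPOBOP pool, and 26 had fewer than 10 reads in the PCN library. Agonist and experiment were the same split here and cannot be told apart, and with 1 PCN library its error is taken from the replicated pools.

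The filter also shaped this count. A member with no read in the 6 pools was tested only if both other unstranded libraries, PCN nuclei and whole liver, had at least 0.1 RPKM. Reads in at least 1 stranded library, which the filter did not use, were found for 29 of the 36. The same share among all 605 tested is not given here, and the stranded libraries were also coded G81. The 36 lay far from other entries, with a median distance of 98837 bases against 2407 for the members tested. More than 10 kb away were 28 of the 36 and 217 of the 605 tested. With equal medians, 38 members were lower and 2 higher, and with limma-voom 20 and 8. Without female replicate 1, 2 or 3 or male replicate 1 or 3 the total was 24, 26, 24, 21 and 28 in place of 43, and in a fit of the 5 male unstranded libraries alone it was 0.

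ncRNA_inter_chr14_12216 (chromosome 14, 80712274-80712584, plus strand) was the clearest of them. It had 6.15 RPKM in PCN nuclei and 3.91 in unstranded whole liver after TCPOBOP, from 42 and 49 reads, and 1.5 to 2.08 RPKM in the 4 stranded libraries. It had no read in the 3 male pools and 0, 1 and 1 read in the female pools. The log2 difference between male TCPOBOP pools and PCN nuclei was -5.97 (SE 0.51, limma adjusted p = 0.00682). As measured, the PCN level was 19.1-fold higher than 3 reads over the male pools. ncRNA_inter_chr2_1102 (chromosome 2, 17862248-17862705, plus strand) had 2.09 RPKM in PCN nuclei, 0.764 to 1.84 in the whole-liver libraries and no read in any of the 6 pools. Against 3 reads over the male pools the PCN level was 9.54-fold higher (limma adjusted p = 0.00277).

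ncRNA_inter_chr4_3084 had 2.29 RPKM in PCN nuclei, 3.55 in unstranded whole liver, 0.103 to 0.736 in stranded whole liver and 1 read in the 6 pools. Against 3 reads over the male pools its PCN level was 8.63-fold higher (limma adjusted p = 0.0103). ncRNA_inter_chr7_6630 had 4.01 RPKM in PCN nuclei and 1.52 to 3.70 in whole liver, against 0.0987 ± 0.171 in male pools (SD, n = 3, limma adjusted p = 0.0346). That call was lost without female replicate 1, 2 or 3 or male replicate 1 or 2, at an adjusted p of 0.0532 to 0.0872. ncRNA_inter_chr11_9792 had 10 reads in PCN nuclei and none in the pools. The neighbouring member ncRNA_inter_chr11_9791, 430 bases away on the same strand, was called lower as well (limma adjusted p = 0.0469). That second call rests on only 0.176 RPKM in PCN nuclei, against 0 in the male pools.

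Higher in the male TCPOBOP pools than in PCN nuclei, ncRNA_inter_chr15_12777 (chromosome 15, 82520969-82521398, minus strand) had 13.3, 13 and 12.1 RPKM against 3.92, which is 1.68 higher on the log2 scale (SE 0.22, limma adjusted p = 0.0169). Without female replicate 3 or male replicate 1 its adjusted p was 0.0524 and 0.0563. ncRNA_inter_chr6_4826 had 9.41, 9.16 and 7.64 RPKM against 3.71 (limma adjusted p = 0.0253), and ncRNA_inter_chr17_13720 had 4.08, 2.45 and 4.31 against 0.467 (limma adjusted p = 0.0422). The call of ncRNA_inter_chr6_4826 was lost without any pool other than male replicates 2 and 3 (adjusted p of 0.0519 to 0.0701), and that of ncRNA_inter_chr17_13720 without female replicate 1 or 3 or male replicate 1 or 3 (0.0785 to 0.0980). Both had a called neighbour of the same sign and strand, ncRNA_inter_chr6_4827 at 951 bases and ncRNA_inter_chr17_13721 at 332 bases. ncRNA_inter_chr10_8909 had 1.37, 2.00 and 0.526 RPKM against no read in PCN nuclei, yet 3.37 in unstranded whole liver, and ncRNA_inter_chr4_3213 had 1.21, 1.18 and 0.726 against 1 read. The former lost its call without any pool other than male replicate 3 (0.0543 to 0.101), the latter without female replicate 3 or male replicate 1 (0.0556 and 0.0521).

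Nuclei and whole liver of TCPOBOP-treated males were compared with the same 3 male pools, now against the unstranded whole-liver library. Here 46 of 605 members were called lower in nuclei (7.60%, against 3.07% of all 7401 tested) and 12 higher (1.98%, against 7.26%), together 9.59% against 10.3%. The median log2 difference, nuclei minus whole liver, was -0.02 for members and 0.27 for all tested. No read in the male pools was found for 41 of the 46, and fewer than 10 reads in the whole-liver library for 19. Compartment and experiment cannot be told apart, and this contrast shares its male pools with the one before. The same 32 members were called lower in both contrasts, and 4 were called higher in both. The lists are thus largely the same members and not separate results. The filter described for PCN nuclei applies here too. Reads in a stranded library were found for 36 of the 46, again without the share among all tested. Medians set equal gave 51 lower and 6 higher, limma-voom 41 and 41, and the fit of 5 male unstranded libraries 0.

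ncRNA_inter_chr14_12216 and ncRNA_inter_chr4_3084 led this side too, with log2 differences of -5.33 (SE 0.51, limma adjusted p = 0.00562) and -5.19 (SE 0.48, limma adjusted p = 0.00522). ncRNA_inter_chr19_15209 had 3.02 RPKM in unstranded whole liver, 1.84 to 5.91 in stranded whole liver and 1.85 in PCN nuclei, but no read in the male pools and 0.390 ± 0.313 RPKM in female pools (SD, n = 3). ncRNA_inter_chr3_2224, one of the members above in female nuclei, had 19 reads in unstranded male whole liver and 3 in male PCN nuclei against none in the male TCPOBOP pools. The 4 stranded male libraries had none either. ncRNA_inter_chr7_6630 (log2 difference -4.40) lost its call without female replicate 1, 2 or 3 or male replicate 1, at an adjusted p of 0.0555 to 0.0606.

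Higher in male nuclei than in whole liver, ncRNA_inter_chr12_10881 (chromosome 12, 105345276-105345676, minus strand) had 4.44, 3.75 and 6.92 RPKM in the pools and 0.309 in whole liver, which is 3.60 higher on the log2 scale (SE 0.61, limma adjusted p = 0.0192). PCN nuclei had 0.682 RPKM and the female pools 0.898, 2.5 and 0.982, each below every male TCPOBOP pool. Without male replicate 1 its adjusted p was 0.0529. ncRNA_inter_chr17_13720 had 3.62 ± 1.01 RPKM in the male pools (SD, n = 3) against 0.255 in whole liver (limma adjusted p = 0.0141), and ncRNA_inter_chr7_6106 had 1.49 ± 0.232 against 1 read (SD, n = 3, limma adjusted p = 0.00826). ncRNA_inter_chr8_7162 and ncRNA_inter_chr10_9010 had no read in unstranded whole liver and 11 reads each in the male pools, but 11 and 20 reads in stranded whole liver. The call of ncRNA_inter_chr10_9010 was lost without any pool other than male replicate 2 (adjusted p of 0.0724 to 0.0992).

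**Figure D4:**
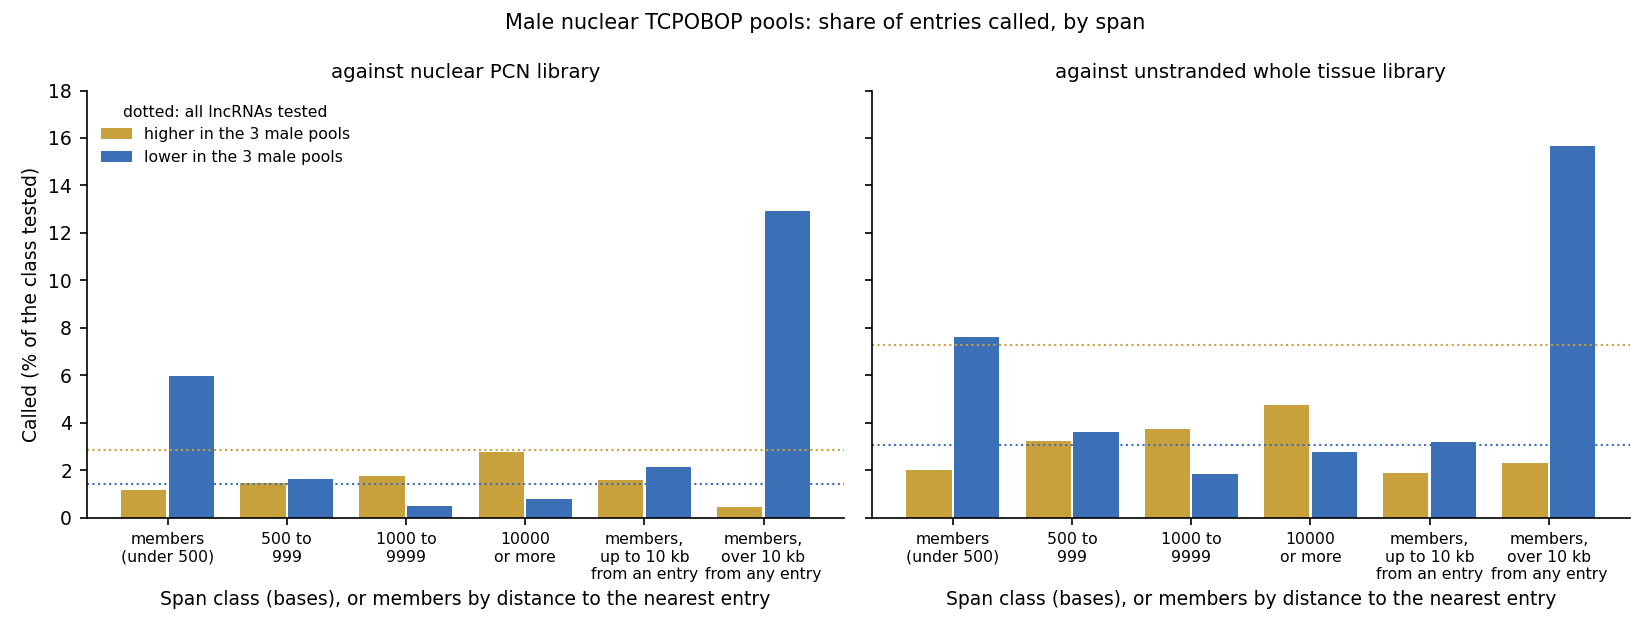
Share of tested entries called higher (yellow) or lower (blue) in the 3 male nuclear TCPOBOP pools, in percent, for the members, for 3 classes of longer intergenic lncRNAs and for members up to or over 10 kb from another entry, with dotted lines for all lncRNAs tested. Against PCN nuclei (left) 5.95% of members but 0.489% to 1.62% of the longer classes were lower, and among members over 10 kb from any entry 12.9% were.

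Calls on the lower side were most frequent for the shortest and the most isolated members. Against PCN nuclei, 12.5% of 144 tested members spanning under 300 bases were lower in the male pools, 4.91% of 224 spanning from 300 to under 400 and 2.95% of 237 spanning 400 or more. In the longer classes it was 1.62% of 1297, 0.489% of 3272 and 0.787% of 508. Among members over 10 kb from any entry 12.9% of 217 were lower, and among those within 10 kb 2.13% of 375. Against unstranded whole liver the shares were 15.7% and 3.20%. A filter of 0.1 RPKM takes fewer reads on a shorter entry, so the span classes did not pass it on the same number of reads. No test of these shares was made.

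A split between the G81 libraries and the 6 nuclear TCPOBOP pools showed over all 12 libraries. No G81 library is from TCPOBOP nuclei, so experiment and this kind of sample cannot be told apart. With reads in each of the 6 G81 libraries, at least 20 in all and no more than 3 in the 6 nuclear TCPOBOP pools together, 13 of 61 members with such G81 reads were found (21.3%). This rule was set after the values had been seen. In the longer classes the share was 11.6% of 112, 0.744% of 1344 and 0.668% of 449. The G81 libraries held 166.7 M reads and the pools 109.7 M. The 13 members had a median distance to the nearest entry of 226078 bases, and 8 of them lay more than 100 kb away, against 5539 bases for the 48 members with such G81 reads but without the pattern. Whether near-identical copies elsewhere share their reads was not tested. ncRNA_inter_chr16_13356 had 3, 13, 11 and 3 reads in the stranded libraries, 12 in unstranded whole liver and 11 in PCN nuclei, and none in the 6 pools. ncRNA_inter_chr4_3240, more than 100 kb from any other entry, had 7, 2, 7, 8, 20 and 6 reads in the same order and 1 in the pools.

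Members of another kind had reads only where the strand was kept. In each stranded library at least 1 read, in all 4 at least 10, and in the 8 unstranded libraries none at 172.0 M reads were found for 11 of 78 members with such stranded reads (14.1%), and for 19.1%, 14.5% and 3.00% of the longer classes. Of the 11, 7 overlapped another entry, and of the 67 without the pattern 0 did. ncRNA_inter_chr3_2167 (chromosome 3, 14849582-14850071, minus strand) had 3.41 and 1.39 RPKM at 3 h and 6 h after TCPOBOP and 4.13 and 1.38 after PCN, from 43, 19, 52 and 17 reads. It lies wholly inside ncRNA_inter_chr3_2166, an entry of 13232 bases on the opposite strand.

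ncRNA_inter_chr3_2140 (chromosome 3, 8246169-8246571, minus strand) had 20, 18, 22 and 10 stranded reads, and the member ncRNA_inter_chr3_2139 with the same start and end on the other strand had none in any library. Such pairs with the same start and end numbered 3, and their 6 members had 90 stranded reads and 0 unstranded reads. Over all 48 overlapping members, 8 had at least 10 stranded reads, and 7 of these had no unstranded read. Among the 1663 that did not overlap it was 4 of 77. ncRNA_inter_chr6_5619 (28, 15, 25 and 9 stranded reads), ncRNA_inter_chr18_14382, ncRNA_inter_chr1_309 and ncRNA_inter_chr2_1745 had the pattern with no overlap. How the reads of overlapping entries were counted is not given in the sources used here, and its part in the pattern was not tested.

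The reverse, at least 1 read in each of 8 unstranded libraries, 20 in all and none in 4 stranded ones, was found for 4 of 78 members with such unstranded reads (5.13%), and for 14.1%, 7.78% and 3.16% of the longer classes. The 4 were ncRNA_inter_chr14_12029, ncRNA_inter_chr12_10988, ncRNA_inter_chr15_12735 and ncRNA_inter_chr1_966. ncRNA_inter_chr15_12735 had 41 reads in unstranded whole liver, 14 in PCN nuclei and 3 to 14 in a pool. The stranded libraries together held 104.4 M reads and the unstranded ones 172.0 M.

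**Figure D5:**
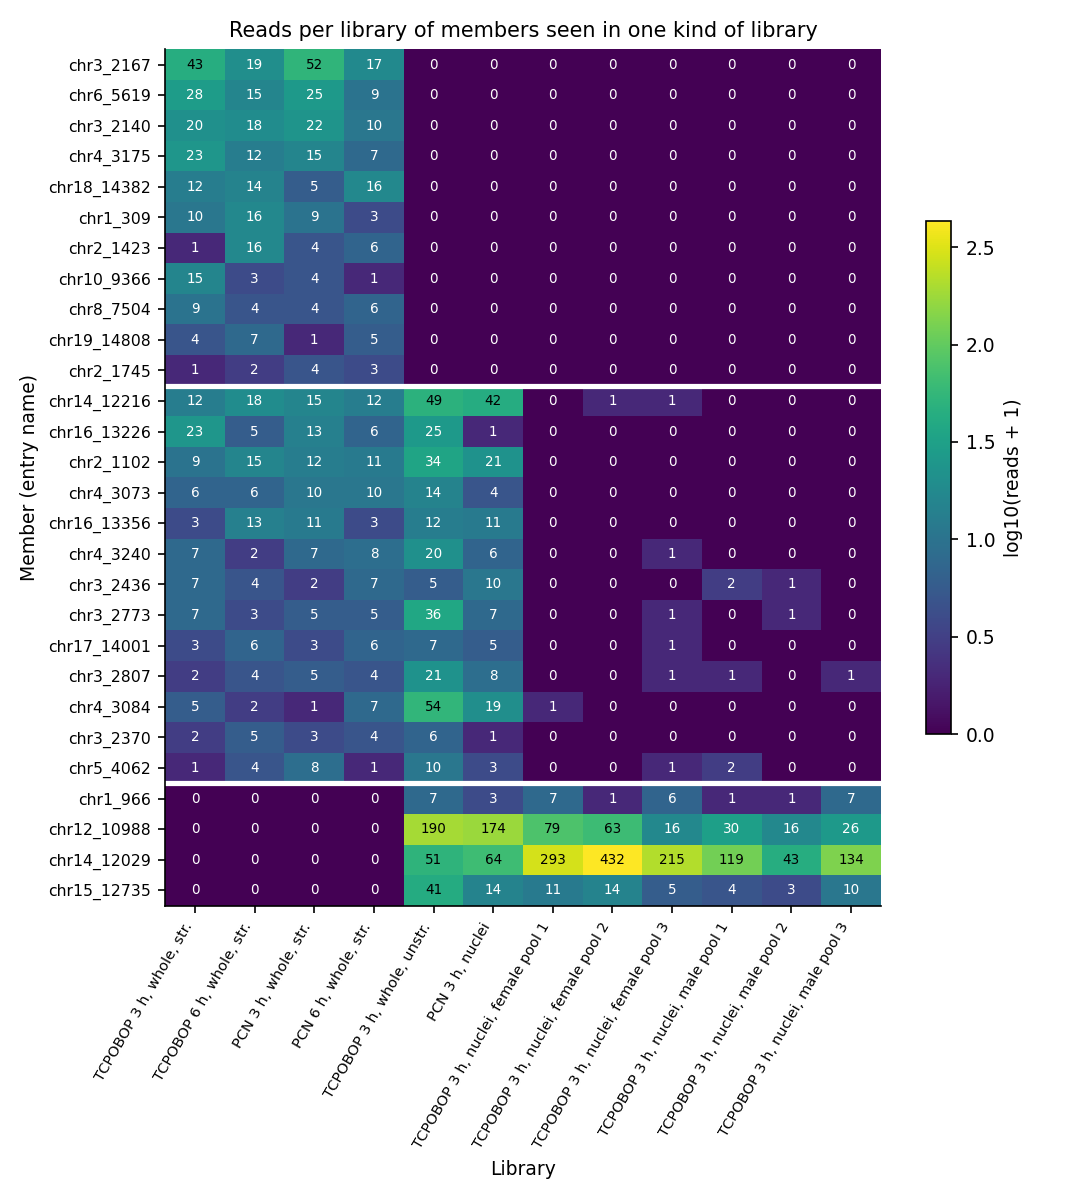
Reads of each library (columns) for the 28 members (rows) with reads in the 4 stranded libraries alone (top block), in the 6 G81 libraries with up to 3 reads in the 6 pools (middle block) or in the 8 unstranded libraries alone (bottom block). Numbers are reads and the colour is log10(reads + 1), and the middle block runs dark from the first female pool on while its PCN nuclear column does not.

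At matched agonist, time and tissue, 1 stranded and 1 unstranded library of whole liver could be set side by side without a replicate. Both had reads for 166 members, the unstranded one alone for 327 and the stranded one alone for 83. Of 59 members with at least 20 reads in either, 33 were at least 4-fold higher unstranded (55.9%, against 61.0%, 28.9% and 16.4% in the longer classes) and 6 at least 4-fold higher stranded (10.2%, against 1.63%, 5.18% and 4.81%). The median ratio, unstranded over stranded with 0.1 RPKM added to both, was 4.90, against 5.72, 2.72 and 1.86 in the longer classes. Folds for the most unequal were set against 3 reads in the library without reads. They were ncRNA_inter_chr12_10988 with 12.7 RPKM unstranded and no stranded read (40.4-fold), ncRNA_inter_chr4_3009 with 8.12 RPKM (22.1-fold) and ncRNA_inter_chr9_7787 with 4.06 RPKM (9.36-fold). ncRNA_inter_chr9_7787 had all 44 of its unstranded reads in that 1 library and 0 in PCN nuclei and the 6 pools. On the stranded side ncRNA_inter_chr3_2167, ncRNA_inter_chr4_3175 and ncRNA_inter_chr6_5619 had 3.41, 2.74 and 2.69 RPKM and no unstranded read (22.5-fold, 12-fold and 14.6-fold).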

How the data were processed

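Per the file headers, the authors deposited RPKM values for each lncRNA, although the sheet is named for FPKM. The submitters' processing notes name TopHat2 and mm9. The sources used here do not name the counting tool, its strand setting or the annotation. Of 25 value columns, 12 matched a library's labels and 13 were not used. Read totals and lengths were recovered from the steps of the values, and 100% of 89242 values above 0 were whole reads within 1e-06 of a read. A count of 0 allows up to 3 reads. Intervals (95%, exact) cover counting error only. Folds set against these 3 reads use the level of the higher group as measured and leave out its counting error.

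limma 3.58.1 (R 4.3.3) was run on log2(RPKM + 0.1) over all lncRNAs with at least 0.1 RPKM in 3 libraries (sexes) or 2 (other fits), with its trend option, and p-values were adjusted by Benjamini-Hochberg. The scripts were tested on simulated data. The changed entries there had levels well above those of most members, so recovery of changes in members with few reads was not tested. Fold changes on this scale understate low entries. The nuclear contrasts came from 1 fit of the 8 unstranded libraries. Pools are the replicates in the sex and nuclear fits, and p-values there measure the spread between them. The stranded fit has no replicate, and its error comes from what agonist and time added together leave over. For a member without reads in any of the nuclear TCPOBOP pools, the nuclear fit combines the trend with a measured spread of 0. The error of such a member can then fall below the trend, and its p-value may be too low. Alternatives were 2 pseudocounts, 3 filters, equal medians, limma-voom on recovered reads, each pool left out and other sets of libraries.

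Named members were the 10 highest by mean, up to 8 called per direction between the sexes without overlap (7 qualified in one), 5 per direction elsewhere with at least 10 reads, and 3 per direction for strand. Members, lists and rules were chosen with earlier results of these data known.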

Additional observations from a re-analysis of the deposited data

Results flagged for a closer look

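Some named members had agonist differences of at least 2-fold in opposite directions at 3 h and 6 h in stranded whole liver. Each value compares 1 library with 1, so the difference between times was not tested. On the log2(RPKM + 0.1) scale, TCPOBOP minus PCN, ncRNA_inter_chr2_1497 had 2.32 at 3 h and -1.03 at 6 h, from 10 and 1 reads and then 2 and 5. ncRNA_inter_chr4_3084 had 1.60 and -1.53, ncRNA_inter_chr2_1423 -1.40 and 1.17, ncRNA_inter_chr1_913 -1.20 and 1.05, and ncRNA_inter_chr9_7787 -1.29 and 1.22. The last had no more than 1 read in any of the 4 libraries.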

How the results depend on the processing

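Between the sexes 36 members were called. A pseudocount of 0.01 gave 17, no filter 15, a mean of at least 1 RPKM 12, at least 10 reads in all 18 and limma-voom 15, while leaving out 1 pool gave 6 to 25. With the replicate block, 16 were called, but same-numbered female and male pools did not deviate together (correlations of -0.018, -0.074 and -0.0002), so the numbers do not pair the pools. For TCPOBOP against PCN in stranded whole liver, with 0 called, a mean of at least 1 RPKM gave 2 and all 12 libraries in the fit 37. For 6 h against 3 h, with 0 called, these gave 6 and 42. In the fit of 12 the error comes largely from the nuclear pools, and a member at 0 in them has no spread there. Against nuclear PCN 43 were called, with 67 under no filter, 19 at a mean of at least 1 RPKM, 28 with limma-voom and 21 to 39 without 1 pool. Against unstranded whole tissue 58 were called, with 22 at a mean of at least 1 RPKM and 44 to 59 without 1 pool. With the 5 male libraries alone both gave 0. The cause was not tested.

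No named member changed direction. The call was kept under every alternative that tested them by 2 of 15 members named between the sexes (1 of them, ncRNA_inter_chr3_2639, was not tested without a male pool) and by 0 of 10 in each nuclear contrast. Equal medians moved the median log2 difference of all lncRNAs by 0.23 between the sexes, 0.13 between times, -0.27 against nuclear PCN and -0.29 against whole tissue, and limma-voom by -0.15, -0.05, 0.25 and 0.38. Among rules chosen after seeing the data, asking for at most 1 read in the pools left 8 of the 13 members seen in G81 libraries alone. Few reads limit most values, since 678 of 1007 members above 0 had under 10.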
